A study of Mus musculus with 18 samples.

Results

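The 35 genes described here encode the mouse machinery of fatty acid oxidation and well-known targets of the peroxisome proliferator-activated receptors (PPARs), together with the receptor gene Ppard. They were chosen by gene symbol, all 35 were found among the 54532 genes of the deposited count table, and 32 had enough counts to be tested among 17537 genes. The libraries came from whole larynges of male C57BL6/J mice aged 8 to 9 weeks. Of 18 libraries, 6 were from mice exposed to smoke of 3R4F research cigarettes (smoke), 6 from mice given the aerosol of a JUUL e-cigarette with Virginia tobacco (e-cigarette) and 6 from mice kept in room air (air). Each exposure took place in an inEXPOSE whole-body chamber for 1 hour a day on 5 days a week and lasted 4 weeks, with room air given in the same kind of chamber. The labels name no genetic change and no diet or fasting state. Whether each library is 1 animal is not stated in the labels, and p-values reflect the spread between libraries, which may be technical.

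Fatty acids enter cells with the help of Cd36 and are carried in the cytosol by binding proteins such as Fabp3. They are moved into mitochondria as carnitine esters and are shortened there in a cycle of dehydrogenation, hydration, dehydrogenation and thiolysis, while peroxisomes shorten very long chains. PPARs are nuclear receptors that bind fatty acids, pair with retinoid X receptors and switch on many of these genes. In skeletal muscle, heart and brown fat the pathway supplies much of the energy, and the larynx holds skeletal muscle beside epithelium, glands and cartilage.

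Libraries held 15.9 to 20.3 M counts in smoke, 16.7 to 22.5 M in e-cigarette and 15.6 to 17.1 M in air. The 35 genes took a median of 0.394% of counts in smoke (0.348% to 0.423%), 0.382% in e-cigarette (0.344% to 0.452%) and 0.352% in air (0.327% to 0.380%). Markers of the labelled tissue were present in every library, with laryngeal epithelium markers summing to 17400 to 29400 CPM (counts scaled to a library of 1 M) in smoke, 24900 to 37400 CPM in e-cigarette and 20300 to 28800 CPM in air. Some libraries stood apart. Markers of thyroid follicles, a gland that adjoins the larynx, summed to 118 to 2901 CPM in e-cigarette libraries 2, 4, 5 and 6, against 26850 and 29230 CPM in e-cigarette libraries 1 and 3 and at least 56830 CPM in each smoke and air library. Gland markers summed to 769 to 3943 CPM in air libraries 4, 5 and 6, against 15180 to 22850 CPM in air libraries 1, 2 and 3. Fast skeletal muscle markers were also lower in air libraries 4, 5 and 6, at 20050 to 25390 CPM, against 28390 to 36360 CPM in air libraries 1, 2 and 3. The same held for cartilage markers, at 29.03 to 53.62 CPM, against 179.3 to 290.4 CPM. Counts without these libraries are given beside the results below.

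The promoter and gene-pair sequences that go with the results are shown here, from RefSeq's promoter table and the GRCm38 genome. Of the 35 genes, 29 had an entry in the promoter table (GRCm38.p6), which runs from 250 bases before to 50 bases after each gene's start. On either strand, the direct repeat of AGGTCA with any single base between the copies, to which PPARs are known to bind, was spelled out in 0 of the 29 windows and in 0.0481% of 27025 genes' windows. Its building block AGGTCA, which lies inside that repeat, stood in 7 of 29 windows (24.1%), against 18.1% of all genes. The motif TNAAGGTCA, known from estrogen-related receptors and also containing AGGTCA, stood in 0 of 29 windows, against 1.43% of all genes. The GC box GGGCGG stood in 21 of 29 windows (72.4%), against 38.2% of all genes. A match is only a match of letters, and a window without one says nothing of the receptor.

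Stretches around AGGTCA are given for Acadm, Cd36 and Acadvl, which were higher in e-cigarette than in air, and for Cpt1a, the shuttle's entry enzyme, which did not pass that test. Each is read along the gene's own strand, and the capitals mark AGGTCA or its reverse complement.
Acadm, chr3:153944872-153944893, minus strand: gTGACCTtcgggctccggtgac
Cd36, chr5:17836104-17836139, minus strand: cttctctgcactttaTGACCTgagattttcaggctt
Acadvl, chr11:70015495-70015530, minus strand: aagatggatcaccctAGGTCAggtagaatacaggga
Cpt1a, chr19:3323192-3323227, plus strand: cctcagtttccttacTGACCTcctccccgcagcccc
In Cd36, this RefSeq start lies inside the span that the count table gives the gene. The other 3 genes with AGGTCA were Ucp3, Plin2 and Plin5.

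Hadha and Hadhb, whose products form the mitochondrial trifunctional protein, lie head to head on chromosome 5 in the count table, Hadha from 30118304 to 30155162 on the minus strand and Hadhb from 30155248 to 30184593 on the plus strand. The 85 bases between them are shown because the pair was higher together in e-cigarette. In RefSeq, Hadha starts at 30154980 and Hadhb at 30155253, both inside the spans of the count table. The 85 bases are thus the gap between those spans and not the whole stretch between the RefSeq starts. The capitals mark both GC boxes, and the sequence follows the plus strand.
Hadha to Hadhb, chr5:30155163-30155247: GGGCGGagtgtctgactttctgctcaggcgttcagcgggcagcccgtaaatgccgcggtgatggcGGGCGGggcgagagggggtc

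Levels of different genes were compared as RPKM, the CPM value divided by the deposited gene length in kilobases. In air, Fabp3, the muscle-type fatty acid binding protein, was highest at 240 ± 28.7 RPKM (SD, n = 6 here and below). The mitochondrial thiolase Acaa2 followed at 137 ± 19.5 RPKM and the long-chain acyl-CoA dehydrogenase Acadl at 123 ± 13.2 RPKM, values whose spreads touch. Cd36 had 59.5 ± 5.17 RPKM, Hadha 33.7 ± 3.63 RPKM and Hadhb 34.2 ± 1.49 RPKM, so the paired genes were level. At the low end, the peroxisomal thiolase Acaa1b had 2.84 ± 0.657 RPKM and Cpt1b, the muscle form of carnitine palmitoyltransferase, 0.740 ± 0.227 RPKM. Cpt1a, its liver form, had 18.0 ± 3.06 RPKM.

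Some of these levels are limited by how the genes lie in the genome. In the GENCODE M21 annotation, Cpt1b shares 81.4% of its exonic bases with the gene model Gm44502 on the same strand, which was listed at 0 counts in all 18 libraries. Etfb, a subunit of the electron transfer flavoprotein, shares 58.2% of its exonic bases on the same strand with Gm45233 and a microRNA gene. Acadvl shares 42.9% with Dvl2 on the opposite strand, and the library kit does not mark strand. The coding sequences of Acot1 and Acot2 are 95.2% identical over 1239 aligned bases, with a shared run of 273 bases, and those of Acaa1a and Acaa1b are 96.5% identical over 1275 bases. Counts of these genes are therefore uncertain. The deposited length matched the exonic length of M21 for 31 of 35 genes, the others being Eci1, Angptl4, Acaa2 and Cpt1a.

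The 3 genes without a test were at or near 0. Cyp4a10, a microsomal fatty acid hydroxylase that is a standard PPAR alpha target in mouse liver, had 0 counts in 18 libraries, which allows up to 0.00945 CPM over all of them (3 counts, counting error only). Its relative Cyp4a14 had 8 counts, 6 in air library 5, 2 in air library 6 and none elsewhere. Fgf21, a hormone gene induced by fasting in liver, had 6 counts, 1 each in 6 libraries.

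In the e-cigarette larynx, 10 of the 32 tested genes were higher than in air, 1 was lower and 21 did not pass the test (edgeR quasi-likelihood test, Benjamini-Hochberg adjusted p below 0.05 over 17537 genes). The higher genes were enzymes of the mitochondrial cycle (Cpt2, Acadvl, Acadl, Acadm, Hadha, Hadhb, Hadh and Etfdh) and the uptake and carrier genes Cd36 and Fabp3. The lower gene was the peroxisomal thiolase Acaa1a. Higher calls made up 31.2% of these genes, against 12.1% of all tested genes, and lower calls 3.12%, against 13.0%. In either direction 34.4% were called, against 25.1% of all tested genes. Log2 fold changes above 0 numbered 24 of 32 (75%, against 50.8% of all genes). The median log2 fold change was 0.18 over the 32 genes and 0.01 over all genes, and each of the 10 changes was below 1.5-fold.

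**Figure D1:**
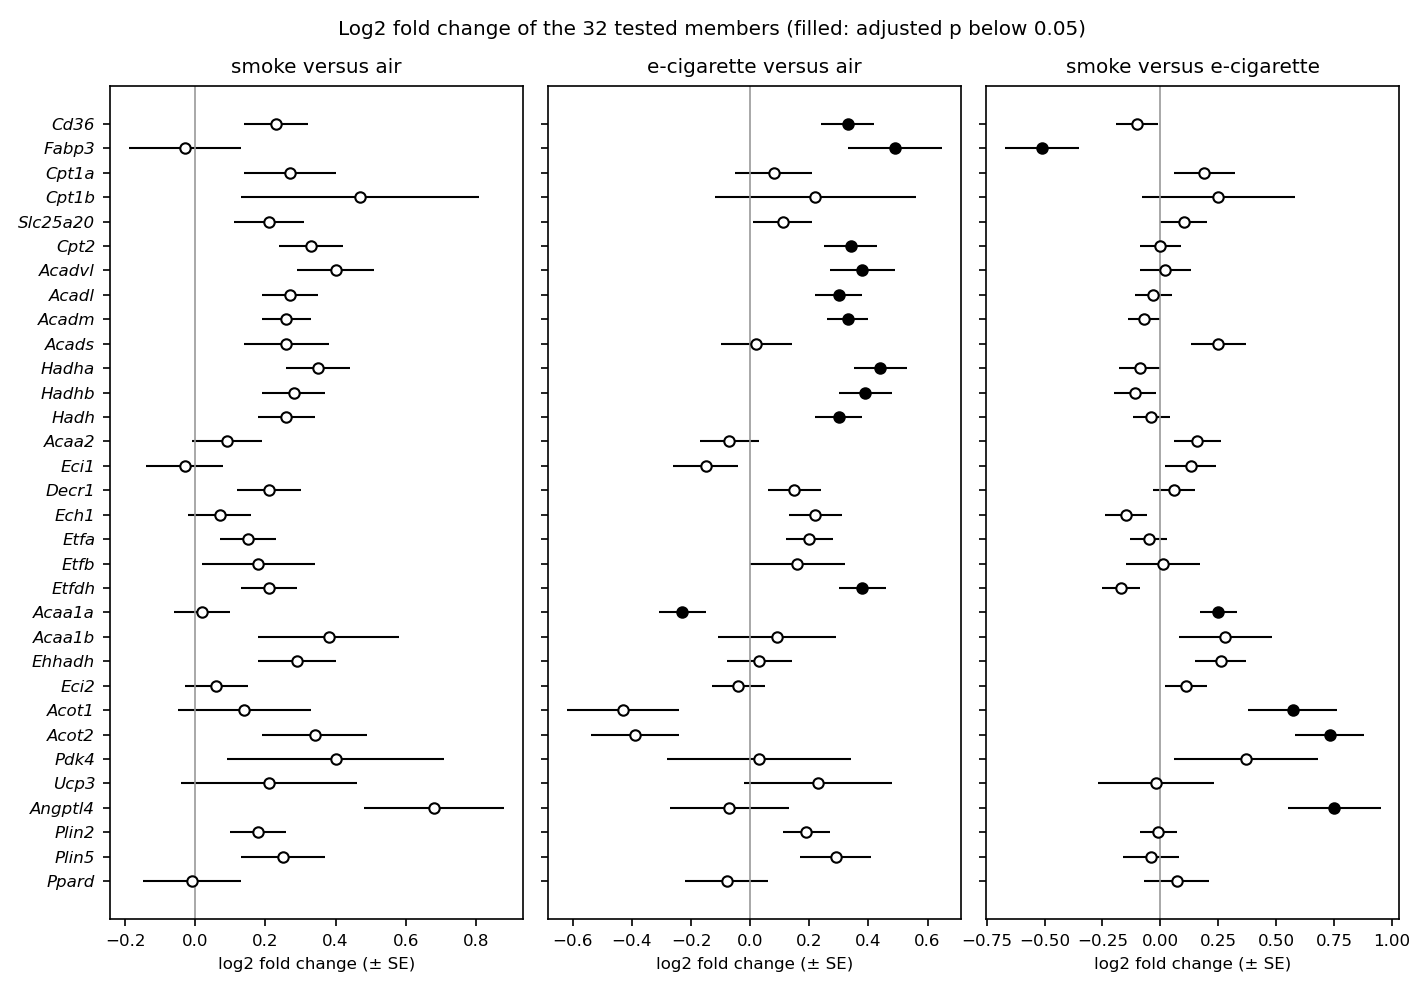
Log2 fold changes of the 32 tested genes with their standard errors in smoke versus air, e-cigarette versus air and smoke versus e-cigarette, with filled points for an adjusted p below 0.05. In e-cigarette versus air 11 points are filled, 10 of them right of 0, in smoke versus air none is filled although 29 points lie right of 0, and in smoke versus e-cigarette 5 are filled.

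Both genes of uptake and binding were higher in e-cigarette. Cd36, which brings fatty acids across the plasma membrane, had a lowest, median and highest value of 225, 264 and 306 CPM in e-cigarette and 195, 207 and 238 CPM in air. All 6 e-cigarette libraries lay above the air median, while the ranges overlapped, and the log2 fold change was 0.33 (SE 0.09, adjusted p = 0.011). Fabp3 had 204, 295 and 320 CPM in e-cigarette and 171, 198 and 226 CPM in air. Its ranges also overlapped, its log2 fold change of 0.49 (SE 0.16, adjusted p = 0.0298) was the largest of the 32 genes, and the call was lost in 7 of the 18 fits without 1 library (air 1, 4 or 6 and e-cigarette 1, 2, 4 or 6).

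Of the 4 genes of the carnitine shuttle, 1 was higher. Cpt2, which re-forms acyl-CoA inside the mitochondrion, had a lowest, median and highest value of 48.3, 61.1 and 62.8 CPM in e-cigarette and 37.8, 47.1 and 51.2 CPM in air. The groups overlapped, and the log2 fold change was 0.34 (SE 0.09, adjusted p = 0.00994). The shuttle's entry step did not pass the test. Cpt1a had 63.6, 78.2 and 113 CPM in e-cigarette and 58.5, 78.0 and 98.1 CPM in air, nearly equal medians, with a log2 fold change of 0.08 (95% interval -0.17 to 0.34, adjusted p = 0.679). Cpt1b had 0.702, 3.16 and 5.39 CPM in e-cigarette and 1.87, 2.26 and 3.97 CPM in air, and its interval was wide (log2 fold change 0.22, -0.45 to 0.89, adjusted p = 0.677). The translocase Slc25a20 gave 0.11 (adjusted p = 0.444).

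The acyl-CoA dehydrogenases, which open each turn of the cycle and differ in the chain length they take, were higher for all but the shortest chains. Acadm, for medium chains, had a lowest, median and highest value of 304, 335 and 389 CPM in e-cigarette and 254, 267 and 284 CPM in air. The groups did not overlap, and the log2 fold change was 0.33 (SE 0.07, adjusted p = 0.00283). Acadvl, for very long chains, had 135, 175 and 203 CPM in e-cigarette and 115, 131 and 147 CPM in air, overlapping ranges with a log2 fold change of 0.38 (SE 0.11, adjusted p = 0.0122). Acadl, for long chains, had 269, 310 and 335 CPM in e-cigarette and 213, 251 and 277 CPM in air. Its ranges overlapped, with a log2 fold change of 0.30 (SE 0.08, adjusted p = 0.0129). Acads, for short chains, had median values of 43.5 CPM in e-cigarette and 43.3 CPM in air and a log2 fold change of 0.02 (95% interval -0.22 to 0.25, adjusted p = 0.938).

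Of the enzymes that complete the cycle, 3 of 4 were higher. Hadha, the subunit of the trifunctional protein that hydrates and oxidises long chains, had a lowest, median and highest value of 315, 410 and 447 CPM in e-cigarette and 244, 297 and 340 CPM in air. Only the lowest e-cigarette library, number 6, fell within the air range, and the log2 fold change was 0.44 (SE 0.09, adjusted p = 0.00164). Hadhb, the thiolase subunit encoded next to it, had 233, 298 and 363 CPM in e-cigarette and 214, 226 and 240 CPM in air. The ranges overlapped, with a log2 fold change of 0.39 (SE 0.09, adjusted p = 0.00215) close to that of its partner. Hadh, which oxidises hydroxyacyl-CoA of shorter chains, had 147, 179 and 201 CPM in e-cigarette and 128, 142 and 153 CPM in air, again overlapping, with a log2 fold change of 0.30 (SE 0.08, adjusted p = 0.00834). Acaa2, the thiolase for shorter chains, did not pass, with a log2 fold change of -0.07 (95% interval -0.26 to 0.13, adjusted p = 0.658).

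Electrons from the acyl-CoA dehydrogenases pass through the electron transfer flavoprotein (Etfa and Etfb) to its oxidoreductase Etfdh. Etfdh had a lowest, median and highest value of 104, 128 and 145 CPM in e-cigarette and 93.0, 98.4 and 104 CPM in air. The groups did not overlap, by a margin of under 1 CPM, and the adjusted p of 0.000934 was the smallest of the 32 genes in this comparison (log2 fold change 0.38, SE 0.08). The flavoprotein's subunits did not pass, with log2 fold changes of 0.20 for Etfa (adjusted p = 0.092) and 0.16 for Etfb (adjusted p = 0.495). The helper enzymes of unsaturated fatty acids did not pass either: Ech1 gave 0.22 (adjusted p = 0.0884), Decr1 0.15 (adjusted p = 0.24) and Eci1 -0.15 (adjusted p = 0.348). Groups without overlap, Acadm and Etfdh, made up 6.25% of the tested genes, against 4.50% of all genes, and 0 genes were lower without overlap, against 6.00% of all genes.

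Of the peroxisomal enzymes and the thioesterases, 1 was lower and none was higher. Acaa1a, which cleaves the shortened chain in peroxisomes, had a lowest, median and highest value of 87.6, 90.8 and 112 CPM in e-cigarette and 107, 111 and 128 CPM in air. The groups overlapped, the log2 fold change was -0.23 (SE 0.08, adjusted p = 0.0418), and the call was held in 12 of the 18 fits without 1 library. It was lost without air 1 or 2 or e-cigarette 1, 2, 4 or 5. Its near-copy Acaa1b gave 0.09 (adjusted p = 0.771). Acot2, a mitochondrial thioesterase that splits acyl-CoA, had 10.1, 10.6 and 14.0 CPM in e-cigarette and 12.4, 14.2 and 21.3 CPM in air. All 6 e-cigarette libraries lay below the air median, and the log2 fold change of -0.39 (SE 0.15, adjusted p = 0.0578) did not pass. Acot1, its cytosolic relative, had 14.5, 20.3 and 28.8 CPM in e-cigarette and 22.1, 28.4 and 38.7 CPM in air. The groups overlapped, and it gave -0.43 (SE 0.19, adjusted p = 0.107), while Ehhadh and Eci2 gave 0.03 and -0.04.

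The targets by which PPAR activity is often read did not pass in e-cigarette versus air. Pdk4, which shuts pyruvate out of the mitochondrion's oxidation, had a lowest, median and highest value of 79.5, 138 and 199 CPM in e-cigarette and 86.1, 104 and 293 CPM in air. The highest air library, number 3, lay far above the other 5, at 86.1 to 131 CPM, and the log2 fold change was 0.03 (95% interval -0.57 to 0.63, adjusted p = 0.961). Angptl4, a secreted inhibitor of lipoprotein lipase, gave -0.07 (-0.46 to 0.33, adjusted p = 0.837). Plin2, which coats lipid droplets, had 86.9, 97.7 and 108 CPM in e-cigarette and 77.7, 84.6 and 96.8 CPM in air. Its log2 fold change was 0.19 (adjusted p = 0.109) and that of Plin5, the droplet coat of oxidative tissue, 0.29 (adjusted p = 0.0785), with 6 of 6 e-cigarette libraries above the air median for each. Ucp3, a mitochondrial carrier of muscle, gave 0.23 (-0.27 to 0.73, adjusted p = 0.547), and Ppard itself -0.08 (-0.35 to 0.18, adjusted p = 0.69). These intervals reach across 0 and do not show that the genes were alike in both groups.

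**Figure D2:**
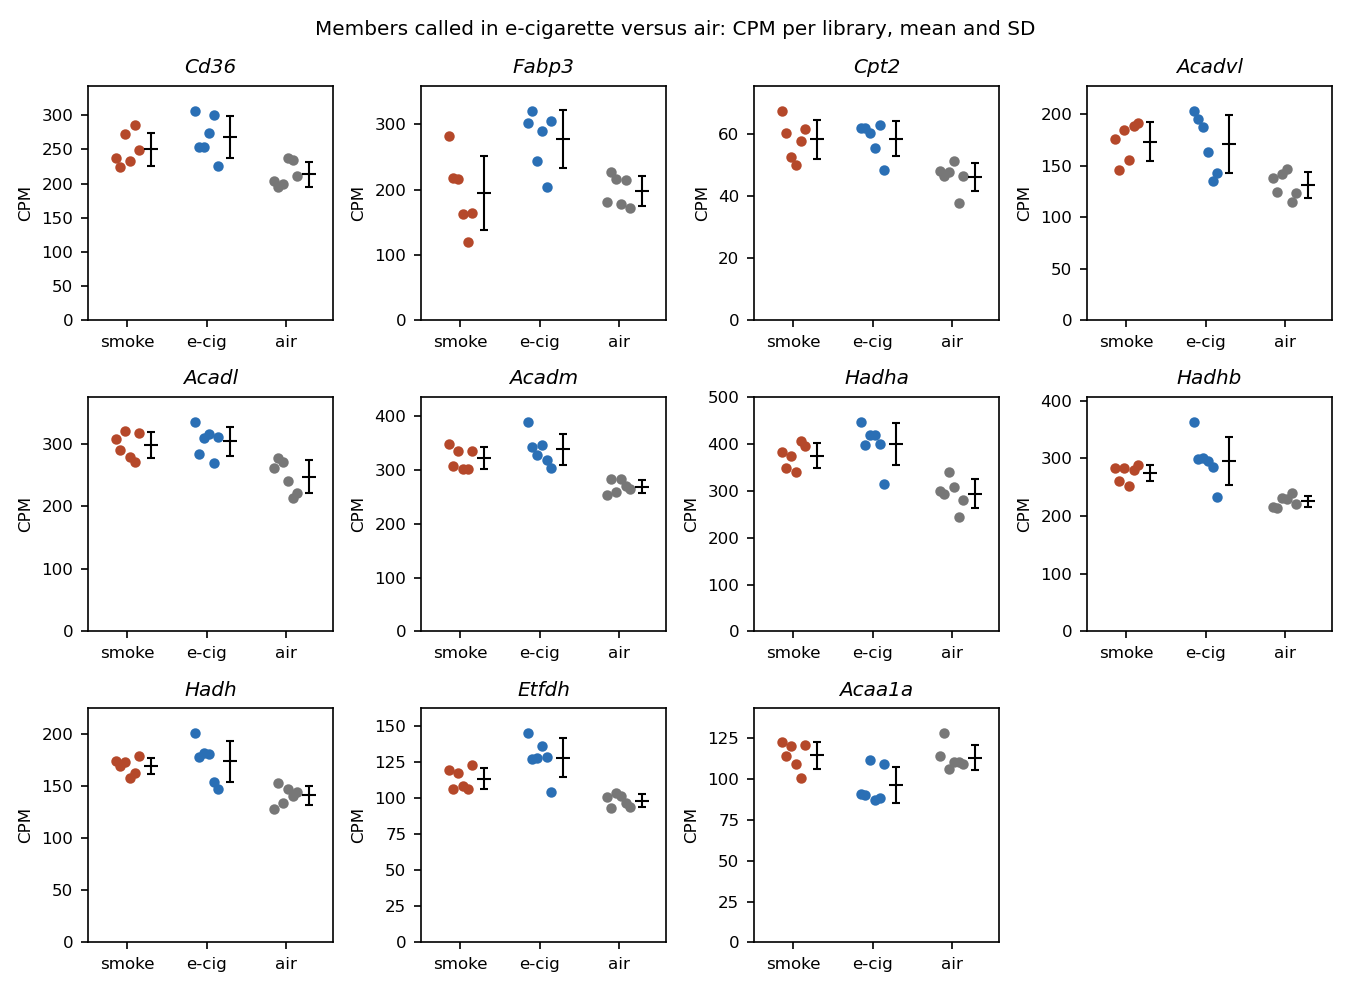
CPM by library of genes called in e-cigarette versus air, with smoke, e-cigarette and air side by side and bars for the mean and SD of 6 libraries. The e-cigarette points of Acadm and Etfdh all lie above the air points, those of the other higher genes overlap with air, and Acaa1a lies lower in e-cigarette.

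Transcripts of fast muscle also differed between e-cigarette and air. Markers of fast skeletal muscle (12 genes) summed to 36800 to 48600 CPM in e-cigarette, median 39500, and 20100 to 36400 CPM in air, median 26900, so the groups did not overlap. Within the e-cigarette group, library 1 had the lowest fast muscle sum, 36820 CPM, and the highest brown fat marker sum, 328.1 CPM. Its slow muscle marker sum, 144.8 CPM, was below only that of library 4, 155.1 CPM. That library was highest for Cd36, Acadvl, Acadl, Acadm, Hadha, Hadhb, Hadh and Etfdh, while Cpt2 was highest in library 5 and Fabp3 in library 2. Libraries 4 and 5 had the highest fast muscle sums, 48590 and 47720 CPM. Whether these orders are linked was not tested. Of the fast muscle markers, 8 of 12 were higher and none was lower, with a median log2 fold change of 0.53, above that of every oxidation gene in the list of 32. Among all tested genes, 12.1% were called higher and 13.0% lower. Slow muscle markers (7 genes) summed to 114 to 155 CPM in e-cigarette and 60.7 to 108 CPM in air, with 2 of 7 higher. White adipocyte markers (7 genes) summed to 494 to 742 CPM in e-cigarette and 645 to 1060 CPM in air, with 2 of 7 lower. Brown fat markers (6 genes) summed to 155 to 328 CPM in e-cigarette and 210 to 272 CPM in air, with none called, and no marker of these lists was at 0 in all libraries. The largest part of the brown fat sum was Cox8b, at a mean of 149 CPM in e-cigarette and 123 CPM in air. Ucp1 had 35.2 CPM in e-cigarette and 51.7 CPM in air. Only 1 of the 6 log2 fold changes was above 0, and their median was -0.26. In whole tissue, a different number of cells of a type and a different amount of RNA per cell cannot be told apart. Scores for fast muscle, white fat and brown fat were the mean log2 CPM of these marker lists. The lists hold Plin1, Plin4, Cidec and Cidea, counted below as PPAR targets, and Cox8b, counted below under oxidative phosphorylation. A fit with these scores therefore cannot separate tissue content from a change in such genes. With the muscle, white fat and brown fat scores added to the fit, 2 genes (Hadhb and Cd36) were called higher and 0 lower, against 1.58% of all genes called higher, while the median log2 fold change was 0.09. Among the genes no longer called, the log2 fold change was 0.36 for Hadha, 0.35 for Acadm, 0.37 for Etfdh, 0.39 for Hadh and 0.46 for Acadvl, against 0.44, 0.33, 0.38, 0.30 and 0.38 without the scores, in the same order. It was smaller for Cpt2 at 0.17, Acadl at 0.15 and Fabp3 at 0.08, and Acaa1a stood at -0.25.

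**Figure D3:**
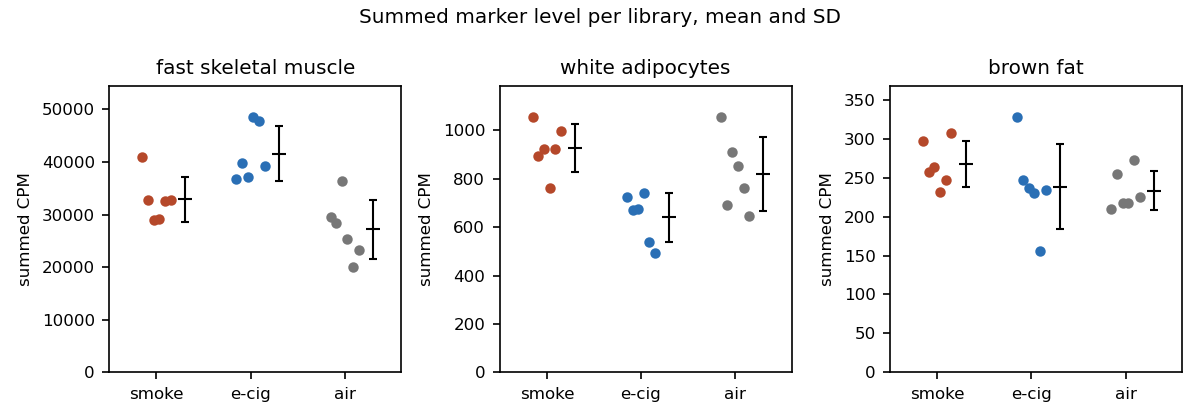
Summed CPM of marker lists by library in smoke, e-cigarette and air, with the mean and SD of 6 libraries. Fast muscle markers lie at or above 36800 CPM in e-cigarette and at or below 36400 CPM in air, and white adipocyte markers reach 742 CPM in e-cigarette and 1060 CPM in air.

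Fewer genes were called without the libraries that stood apart, in fits with 3 or 4 fewer libraries. Without air libraries 4, 5 and 6, 6 genes were called higher (Acadm, Hadha, Hadhb, Hadh, Etfdh and Cd36) and 0 lower, where 10.8% of all genes were called higher. Without e-cigarette libraries 2, 4, 5 and 6, 5 were called higher (Acadvl, Hadha, Hadhb, Hadh and Etfdh) and 0 lower, with 2 e-cigarette libraries left and 1.28% of all genes called higher. Hadha, for example, had a log2 fold change of 0.36 (adjusted p = 0.0254) without the air libraries and 0.54 (adjusted p = 0.021) without the e-cigarette libraries. Acadm, which was not called without the e-cigarette libraries, had 0.39 there (adjusted p = 0.0527), and Acadl, not called in either fit, had 0.17 without the air libraries and 0.36 without the e-cigarette libraries. Each of 9 higher genes, all but Fabp3, was called in all 18 fits that left out 1 library.

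In the smoke larynx, 0 of the 32 genes passed the test against air, where 1.59% of all genes did (0.975% higher and 0.616% lower). The values leaned upward: 29 of 32 log2 fold changes were above 0 (90.6%, against 51.6% of all genes), and their median was 0.24, against 0.01 for all genes. At an unadjusted p below 0.05 there were 18 of the 32 genes, all higher, while 19.9% of all genes were below it in either direction. That number depended on the fit. It was 13 with RLE size factors, DESeq2, voom or no filter, 17 with 2 groups and 14 with the replicate block. Without air libraries 4, 5 and 6 it was 9, and with the muscle and fat scores it was 1. Adjusted p-values ran from 0.0575 to 0.973. Without air libraries 4, 5 and 6 the median was 0.20, without e-cigarette libraries 2, 4, 5 and 6 it was 0.21, and 0 genes were called in either fit. With DESeq2, 7 genes were called higher (Hadh, Acadm, Cpt2, Hadha, Hadhb, Acadvl and Angptl4), and with limma's voom 6 were (Acadl, Acadm, Hadha, Hadhb, Acadvl and Angptl4), against 2.69% and 4.34% of all genes called higher by these tools. Acadm, Hadha, Hadhb, Acadvl and Angptl4 were called by both tools, at adjusted p-values of 0.0575 to 0.0809 in the quasi-likelihood test.

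The values nearest to the threshold belonged to long-chain enzymes. Acadvl had a lowest, median and highest value of 146, 180 and 191 CPM in smoke and 115, 131 and 147 CPM in air. The ranges overlapped by 1 smoke library, and the log2 fold change was 0.40 (SE 0.11, adjusted p = 0.0575). Hadha had 340, 379 and 408 CPM in smoke and 244, 297 and 340 CPM in air, with a log2 fold change of 0.35 (SE 0.09, adjusted p = 0.0583). Cpt2 had 50.1, 59.0 and 67.4 CPM in smoke and 37.8, 47.1 and 51.2 CPM in air, overlapping by 1 smoke library, with a log2 fold change of 0.33 (SE 0.09, adjusted p = 0.0609).

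Groups without overlap were seen for Acadm, Hadhb, Hadh and Etfdh, 12.5% of the tested genes, against 1.54% of all genes, and for 0 genes in the lower direction, against 0.890% of all genes. Acadm had a lowest, median and highest value of 301, 321 and 348 CPM in smoke and 254, 267 and 284 CPM in air (log2 fold change 0.26, SE 0.07, adjusted p = 0.071). Hadhb had 253, 281 and 289 CPM in smoke and 214, 226 and 240 CPM in air (0.28, SE 0.09, adjusted p = 0.0809). Every smoke library thus exceeded every air library although the adjusted p missed the threshold. Hadh had 158, 171 and 179 CPM in smoke and 128, 142 and 153 CPM in air (0.26, SE 0.08, adjusted p = 0.0783). Etfdh had 106, 113 and 123 CPM in smoke and 93.0, 98.4 and 104 CPM in air, and was the farthest of these from the threshold (0.21, SE 0.08, adjusted p = 0.132). Acadl, which overlapped, gave 0.27 (SE 0.08, adjusted p = 0.0929).

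Among the 32 genes, Angptl4 had the largest log2 fold change. It had a lowest, median and highest value of 23.0, 28.1 and 36.0 CPM in smoke and 9.73, 17.8 and 25.5 CPM in air, so 6 of 6 smoke libraries lay above the air median, with an overlap (log2 fold change 0.68, SE 0.20, adjusted p = 0.0741). Without air libraries 4, 5 and 6 it was 0.35 (adjusted p = 0.367). Pdk4 had 98.7, 177.5 and 263 CPM in smoke and 86.1, 104 and 293 CPM in air, where the highest air value is that of library 3 and the other 5 lie at 86.1 to 131 CPM (0.40, SE 0.31, adjusted p = 0.496). Without air library 3 the log2 fold change of Pdk4 was 0.76 (adjusted p = 0.107), and without air libraries 4, 5 and 6 it was 0.01. Cpt1b gave 0.47 (SE 0.34, adjusted p = 0.46). Cpt1a had 81.4, 93.2 and 105 CPM in smoke and 58.5, 78.0 and 98.1 CPM in air, with 6 of 6 smoke libraries above the air median, and gave 0.27 (SE 0.13, adjusted p = 0.248), Cd36 0.23 (SE 0.09, adjusted p = 0.167) and Plin2 0.18 (SE 0.08, adjusted p = 0.237). At the low end were Fabp3 and Eci1 at -0.03 and Ppard at -0.01, values that lay on either side of 0 across the fits.

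Muscle and fat markers in smoke and air overlapped. Fast muscle markers summed to 29000 to 41000 CPM in smoke, median 32700, and 20100 to 36400 CPM in air, with 0 of 12 called and a median log2 fold change of 0.19. Slow muscle markers summed to 91.1 to 131 CPM in smoke, median 101, and 60.7 to 108 CPM in air, median 69.6, with 1 of 7 higher and 7 of 7 above 0. Among all tested genes, 0.975% were called higher. White adipocyte markers summed to 763 to 1050 CPM in smoke and 645 to 1060 CPM in air, with 0 of 7 called, and brown fat markers to 231 to 307 CPM in smoke and 210 to 272 CPM in air, with 0 of 6 called. Other tissue markers differed more. Gland markers had 3 of 7 higher (median log2 fold change 2.03), and ciliated cell markers 2 of 6 lower (median -0.53). Cartilage markers had 0 of 8 called, with 8 of 8 above 0 (median 1.22). Of laryngeal epithelium markers, 1 of 8 was lower. Lower calls among all tested genes were 0.616%. With the scores in the fit, the median of the 32 genes was 0.08 and 1 gene had an unadjusted p below 0.05, with 0 called. In that fit only 5 genes of the whole table were called in smoke versus air.

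Between the exposures, 4 of the 32 genes were higher in smoke than in e-cigarette and 1 was lower. Higher in smoke were Angptl4, both thioesterases Acot1 and Acot2, and the peroxisomal thiolase Acaa1a, and the lower gene was the carrier Fabp3. Higher calls made up 12.5% of these genes, against 10.4% of all genes, and lower calls 3.12%, against 6.10%, which together come to 15.6% against 16.5%, so the share was near that of all genes. None of the mitochondrial cycle enzymes passed. The median log2 fold change was 0.04, against -0.01 for all genes. Smoke and e-cigarette were compared with the same air libraries above, so those 2 comparisons are not independent.

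Acot2 was the gene whose groups did not overlap (3.12% of the tested genes, against 6.65% of all genes higher in smoke without overlap). None of the 32 was lower in smoke without overlap, against 2.72% of all genes. Acot2 had a lowest, median and highest value of 14.2, 19.6 and 24.0 CPM in smoke and 10.1, 10.6 and 14.0 CPM in e-cigarette. The gap between the groups was narrow, and the log2 fold change was 0.73 (SE 0.15, adjusted p = 0.00205). Acot1 had 23.1, 33.2 and 39.5 CPM in smoke and 14.5, 20.3 and 28.8 CPM in e-cigarette, overlapping, with a log2 fold change of 0.57 (SE 0.19, adjusted p = 0.045). Since the coding sequences of the pair are nearly the same, their reads may have been split between them, and their values are not separate evidence.

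Angptl4 had a lowest, median and highest value of 23.0, 28.1 and 36.0 CPM in smoke and 11.7, 16.5 and 24.1 CPM in e-cigarette. The groups overlapped only at the highest e-cigarette library, number 5, and the log2 fold change of 0.75 (SE 0.20, adjusted p = 0.0144) was the largest of the 32. Acaa1a had 101, 117 and 123 CPM in smoke and 87.6, 90.8 and 112 CPM in e-cigarette, with a log2 fold change of 0.25 (SE 0.08, adjusted p = 0.0406). Fabp3 had 121, 190.5 and 282 CPM in smoke and 204, 295 and 320 CPM in e-cigarette, with 6 of 6 smoke libraries below the e-cigarette median (log2 fold change -0.51, SE 0.16, adjusted p = 0.0314). Next in size among the lower values were Etfdh at -0.17 (SE 0.08, adjusted p = 0.127) and Ech1 at -0.15 (SE 0.09, adjusted p = 0.306), neither of which passed. For the trifunctional protein, Hadha gave -0.09 (95% interval -0.28 to 0.09) and Hadhb -0.11 (-0.28 to 0.06).

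**Figure D4:**
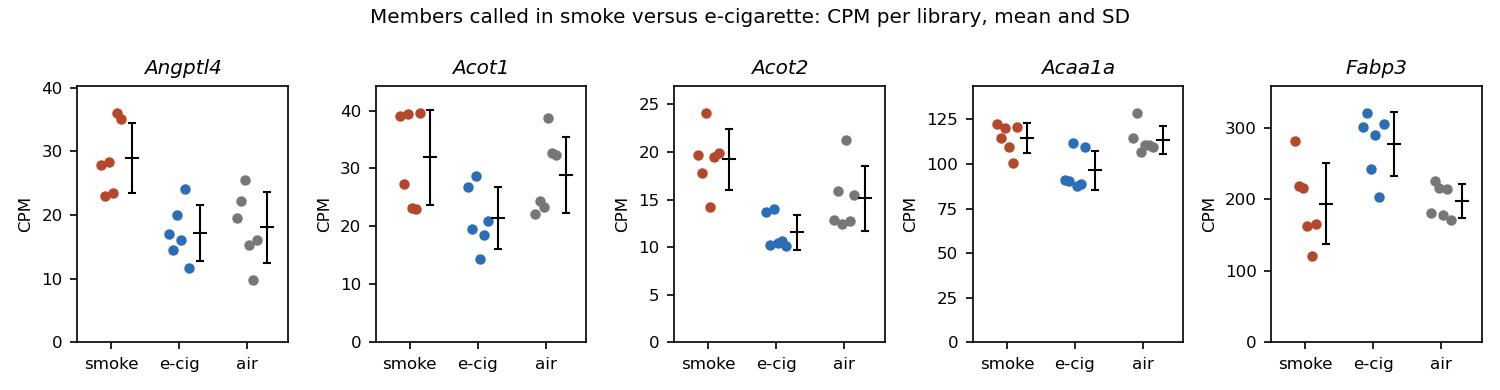
CPM by library of the 5 genes called in smoke versus e-cigarette, with smoke, e-cigarette and air side by side and the mean and SD of 6 libraries. Acot2 in smoke lies above all e-cigarette libraries, Angptl4, Acot1 and Acaa1a in smoke overlap with the upper e-cigarette libraries, and Fabp3 lies lower in smoke.

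Angptl4 and Acot2 were called in all 18 fits that left out 1 library, Fabp3 in 11, Acot1 in 10 and Acaa1a in 9. Fabp3 was lost without smoke 4, 5 or 6 or e-cigarette 1, 2, 4 or 6. Acot1 was lost without smoke 1, 3 or 6, e-cigarette 2, 4, 5 or 6 or air 6, and Acaa1a without smoke 1, 2, 3, 4 or 6 or e-cigarette 1, 2, 4 or 5. Without e-cigarette libraries 2, 4, 5 and 6, those lowest in thyroid transcripts, 0 of the 5 was called, with log2 fold changes of 0.64 for Angptl4 (adjusted p = 0.375) and 0.46 for Acot2 (adjusted p = 0.411). White adipocyte markers summed to 763 to 1050 CPM in smoke and 494 to 742 CPM in e-cigarette, groups without overlap, with 4 of 7 higher in smoke (median log2 fold change 0.60). Brown fat markers had 3 of 6 higher, fast muscle markers 4 of 12 lower and slow muscle markers 0 of 7 called. Among all tested genes, 10.4% were called higher in smoke and 6.10% lower. With the muscle, white fat and brown fat scores in the fit, 0 of the 32 genes and 0 of all 17537 genes were called, the edgeR test leaving 6 of the 32 at an unadjusted p below 0.05. Acot2 then gave 0.33 (adjusted p = 0.601) and Angptl4 0.75 (adjusted p = 0.485).

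The receptors and coactivators that act on these genes were described from a list of 18 regulators. In e-cigarette versus air, 4 were higher and 3 lower, and in smoke versus air none was called in either direction. The 7 calls in e-cigarette come to 38.9% of the list, against 25.1% of all tested genes, and none among 18 in smoke versus air stands beside 1.59% of all genes. Ppara, the receptor of the fasting response, averaged 16.3 ± 3.58 CPM in smoke, 16.8 ± 4.48 CPM in e-cigarette and 11.0 ± 4.14 CPM in air. It did not pass in smoke versus air (log2 fold change 0.57, SE 0.24, adjusted p = 0.193) or in e-cigarette versus air (0.61, SE 0.24, adjusted p = 0.0685). Pparg, the adipocyte receptor, averaged 17.6 ± 2.41 CPM in smoke, 14.4 ± 4.08 CPM in e-cigarette and 15.2 ± 2.6 CPM in air, with no call. Ppard averaged 36.9 ± 2.89 CPM in smoke, 35.1 ± 6.21 CPM in e-cigarette and 37.2 ± 9.24 CPM in air. The coactivator gene Ppargc1a averaged 49.0 ± 5.15 CPM in smoke, 47.2 ± 6.49 CPM in e-cigarette and 51.2 ± 13.5 CPM in air, so the 3 receptors and this coactivator did not pass in any of the 3 comparisons. Esrrg, an estrogen-related receptor of oxidative muscle, averaged 13.4 ± 2.45 CPM in smoke, 20.9 ± 4.46 CPM in e-cigarette and 10.8 ± 2.33 CPM in air. It was higher in e-cigarette than in air (0.95, adjusted p = 0.000264) and lower in smoke than in e-cigarette (-0.64, adjusted p = 0.00986). Its relative Esrrb went the other way, with -1.08 in e-cigarette versus air (adjusted p = 0.0014) and 0.95 in smoke versus e-cigarette (adjusted p = 0.00646). The retinoid X receptor gene Rxrg was higher in e-cigarette than in air (0.77, adjusted p = 0.000417).

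Other genes of the pathway were counted from lists named by function. Of 20 tested genes of uptake, activation and transport, 3 were higher and 3 lower in e-cigarette versus air, 0 and 1 in smoke versus air, and 4 and 0 in smoke versus e-cigarette. These are 30% of the list in e-cigarette versus air, near the 25.1% of all genes, and 5% in smoke versus air, against 1.59%. In smoke versus e-cigarette the 4 higher genes are 20%, against 10.4% of all genes called higher and 16.5% in either direction. Acsl3, which activates fatty acids at lipid droplets, averaged 71.1 ± 7.02 CPM in smoke, 61.0 ± 4.80 CPM in e-cigarette and 122 ± 48.2 CPM in air. It was lower in smoke than in air (-0.78, adjusted p = 0.0258) and lower in e-cigarette than in air (log2 fold change -1, adjusted p = 0.000213), with a wide spread in air. Acsl5, another activating enzyme, was lower in e-cigarette than in air (-0.49, adjusted p = 0.000215), and the carnitine acetyltransferase Crat was higher (0.50, adjusted p = 0.00333). Of 15 tested peroxisomal genes, 4 were higher in e-cigarette than in air, led by the fatty acid transporter Abcd2 (0.45, adjusted p = 0.00174), and 0 passed in smoke versus air. The 4 come to 26.7% of that list, against 12.1% of all genes called higher and 25.1% in either direction. None of the list was lower, against 13.0% of all genes.

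Of 16 genes of other mitochondrial oxidation and of ketone bodies, 7 were higher and 1 lower in e-cigarette versus air (50%, against 25.1% of all genes). The enzymes that use ketone bodies were higher: Oxct1 averaged 277 ± 10.0 CPM in smoke, 355 ± 41.9 CPM in e-cigarette and 231 ± 13.9 CPM in air (e-cigarette versus air 0.62, adjusted p = 2.16e-05), and Bdh1 gave 0.73 (adjusted p = 0.000446). In smoke versus air 1 of the 16 passed (6.25%, against 1.59% of all genes). It was Echs1, the short-chain enoyl-CoA hydratase, which was higher (133 ± 5.70 CPM in smoke and 109 ± 5.08 CPM in air, log2 fold change 0.29, adjusted p = 0.0271).

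Of 16 tested genes of other PPAR targets, 3 were higher in smoke than in air and 0 lower (18.8%, against 1.59% of all genes). These were the glycerol channel Aqp7 (0.85, adjusted p = 0.0289), Txnip (0.51, adjusted p = 0.0359) and the glycerol phosphate dehydrogenase Gpd1 (0.63, adjusted p = 0.0454). In e-cigarette versus air 2 were higher and 1, the lipid droplet gene Cidec, was lower (-0.58, adjusted p = 0.0205), a share of 18.8% below the 25.1% of all genes. In smoke versus e-cigarette 3 were higher and 1 lower (25%, against 16.5% of all genes), led by the droplet coat gene Plin1 (112 ± 29.4 CPM in smoke, against 54.7 ± 17.7 CPM in e-cigarette, log2 fold change 1.04, adjusted p = 0.00197). All 3 higher genes are also fat markers in the lists above, Plin1 and Cidec of white adipocytes and Cidea of brown fat. They are not separate results from those markers, and neither is the lower Cidec in e-cigarette versus air.

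The pathways downstream of beta-oxidation were counted likewise. Of 17 genes of the tricarboxylic acid cycle, 12 were higher and 0 lower in e-cigarette versus air, with a median log2 fold change of 0.36 (70.6% called, against 25.1% of all genes). In smoke versus air 1 of the 17 was higher (5.88%, against 1.59% of all genes). Idh3a, the catalytic subunit of the NAD-dependent isocitrate dehydrogenase, averaged 293 ± 13.9 CPM in smoke, 358 ± 31.4 CPM in e-cigarette and 255 ± 22.3 CPM in air (e-cigarette versus air 0.49, adjusted p = 0.000182). Of 80 nuclear genes of oxidative phosphorylation, 17 were higher and 1 lower in e-cigarette versus air (22.5% called, against 25.1% of all genes, median 0.18). Of all genes, 12.1% were higher and 13.0% lower in that comparison. In smoke versus air 1 of the 80 was higher (1.25%, against 1.59% of all genes, median -0.02). In smoke versus e-cigarette 10 were lower (12.5%, against 6.10% of all genes) and 0 higher, against 10.4% of all genes (median -0.17). In either direction 16.5% of all genes were called there. Fast muscle markers differed in e-cigarette as given above, and their part in these counts was not tested.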

How the data were processed

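Whole-larynx mRNA was sequenced in 18 libraries, 6 per group. Per the labels' protocols, each library was made from 1 µg of RNA with the unstranded NEBNext Ultra kit. The authors, per the submitters' processing notes, used STAR and featureCounts 1.5.0-p3 with GRCm38 (mm10); for the STAR version, annotation release and strand setting, the entry is "not given in the sources used here". The deposited values are raw counts per gene, and coordinates and gene lengths are quoted as deposited. Exon overlaps and coding sequences came from GENCODE M21 and promoters from RefSeq (GRCm38.p6).

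Genes were kept with filterByExpr (minimum count 10, minimum total 15), which left 17537 of 54532. All 18 libraries entered 1 edgeR 4.0.16 fit with the group as its term and no covariate (TMM, robust quasi-likelihood, R 4.3.3), with Benjamini-Hochberg adjustment over all tested genes. "Called", "higher", "lower" and "passed" refer to an adjusted p below 0.05, and adjusted p-values are from this fit unless another tool is named. SE derives from the F statistic, and CPM uses TMM-scaled library sizes. The fit was tested on simulated counts drawn from its own spread estimates and the air levels. Those counts held no differences in tissue composition, so the test says nothing of their effect.

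The genes, lists, tests and alternatives were chosen with earlier results of these data known. Full values are given for every called gene, for the 3 largest log2 fold changes in each direction per comparison, and for Cpt1a, Cpt1b, Cpt2, Acadm, Hadha, Pdk4, Angptl4, Cd36, Plin2, Ppard, Ppara, Pparg and Ppargc1a; from other lists, up to 3 called genes with the smallest p are named, and some of these are not reported here. Replicate pairs within a group differed beyond sampling noise (45 pairs, chi-square per degree of freedom 16.5 to 146). Alternatives were DESeq2 1.42.0, limma 3.58.1 (voom), another scaling, no filter, fits of 2 groups, a replicate block, marker scores of muscle and fat, and leaving out libraries.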

Additional observations from a re-analysis of the deposited data

Results flagged for a closer look

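In groups of 6 libraries, a value was singled out when its gap to the nearest other value, divided by the group's range, exceeded Dixon's 95% critical value. Chance singles out about 1 in 20 groups, and 7 values of 6 genes were found in 96 groups of 6. E-cigarette library 6 had 315 CPM of Hadha, against 398 to 447 CPM in the other 5 (ratio 0.631). Air library 5 had 37.8 CPM of Cpt2, against 46.4 to 51.2 CPM (0.643), and 122 CPM of Eci1, against 90.2 to 100 CPM (0.687). Air library 3 had 293 CPM of Pdk4, against 86.1 to 131 CPM (0.782). Air library 2 had 128 CPM of Acaa1a, against 107 to 114 CPM (0.64), and without it the log2 fold change of Acaa1a in e-cigarette versus air was -0.19 (edgeR, adjusted p = 0.101). Smoke library 1 had 5.04 CPM of Cpt1b, against 2.67 to 3.55 CPM (0.627), and air library 1 had 3.97 CPM, against 1.87 to 2.57 CPM (0.669).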

How the results depend on the processing

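These are whole tissues, and marker transcripts of muscle, fat, thyroid and glands differed between groups. The number of genes called higher in e-cigarette versus air was 10, and was 2 with marker scores, 6 without air libraries 4 to 6, 5 without e-cigarette libraries 2, 4, 5 and 6, and 9 to 11 when leaving out 1 library. The number called lower was 1, and was 2 with RLE size factors, DESeq2 or voom, 0 without a filter, with 2 groups, with the replicate block, with scores, without air 4 to 6 or without e-cigarette 2, 4, 5 and 6, and 0 to 3 when leaving out 1 library. In smoke versus air 0 were higher, but 7 with DESeq2, 6 with voom and 0 to 1 when leaving out 1 library. In smoke versus e-cigarette 4 were higher, but 2 without a filter, 2 with 2 groups, 2 with the replicate block, 0 with scores, 0 without e-cigarette 2, 4, 5 and 6, and 2 to 4 when leaving out 1 library. There 1 was lower, but 2 with voom, 0 with scores, 0 without e-cigarette 2, 4, 5 and 6, and 0 to 1 when leaving out 1 library. The cause of these shifts was not tested, except that leaving out libraries lowers the number of samples. Replicate numbers did not pair the samples (correlations of same-numbered libraries -0.446 to 0.157, 0 of 6 best matched to their own number), and the replicate block gave 39 calls over all genes in smoke versus air, against 279 without it, 3836 in e-cigarette versus air, against 4406, and 2386 in smoke versus e-cigarette, against 2897. The median log2 fold change in smoke versus air was 0.24, and 0.08 with scores; in smoke versus e-cigarette it was 0.04, and -0.10 with scores.

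Log2 fold changes that turned sign were small or of genes that did not pass. In smoke versus air with scores they were Plin2 at -0.03, Ppargc1a at 0.01, Pdk4 at -0.40 and Pparg at -0.20; without air 4 to 6, Ppargc1a at 0.23 and Eci1 at 0.02; and Ppard at 0.09 with voom and 0.01 with the replicate block. In e-cigarette versus air with scores they were Ppargc1a at 0.48, Pdk4 at -0.55, Pparg at 0.26 and Cpt1b at -0.15; without air 4 to 6, Ppargc1a at 0.20, Pdk4 at -0.35 and Cpt1b at -0.05; with voom, Pparg at 0.04, Angptl4 at 0.01 and Cpt1a at -0.06; and without e-cigarette 2, 4, 5 and 6, Pparg at 0.30 and Angptl4 at 0.02. In smoke versus e-cigarette they were Ppargc1a and Pparg at -0.46 each with scores, and Pparg at -0.11 and Ppard at -0.01 without e-cigarette 2, 4, 5 and 6. Leaving out 1 library gave ranges across 0 in smoke versus air for Fabp3 (-0.16 to 0.06), Ppargc1a (-0.17 to 0.01), Eci1 (-0.07 to 0.04) and Ppard (-0.08 to 0.12). In e-cigarette versus air it did so for Pdk4 (-0.12 to 0.39), Pparg (-0.22 to 0.01), Cpt1b (-0.08 to 0.41), Ppard (-0.17 to 0.04), Angptl4 (-0.21 to 0.04) and Cpt1a (-0.05 to 0.15), and in smoke versus e-cigarette for Plin2 (-0.06 to 0.03), Cpt2 (-0.05 to 0.04), Ppargc1a (-0.02 to 0.09) and Ppara (-0.18 to 0.03).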

Other observations

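Ppara had log2 fold changes of 0.48 to 1.39 in e-cigarette versus air over 27 alternatives, of which 5 called it. It was called with the muscle and fat scores in the edgeR fit (log2 fold change 1.39, adjusted p = 0.0396) and without air libraries 4, 5 and 6 (1.01, adjusted p = 0.0154).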
